A study of Rattus norvegicus with 15 samples.

Results

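The genes described here mark vascular endothelium and its response to angiogenic signals. Of 10 listed genes (Pecam1, Vwf, Eng, Cdh5, Tie1, Tek, Angpt2, Kdr, Flt1 and Esm1), 8 had a probe set on the Affymetrix Rat230A array under their own symbol, out of 10411 genes with one. Those 8 genes were represented by 10 of the 15923 probe sets, with 3 probe sets for Flt1 and 1 for each other gene. Cdh5 and Tek had none under these symbols. The genes were listed by name, with earlier results of these data known. Every matching probe set was kept, whatever its signal.

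RNA came from the posterior cerebral artery on the ligated side of Sprague Dawley rats of 7 weeks and 300 to 350 g. In 3-vessel occlusion (3VO), both vertebral arteries were electrocoagulated and the left common carotid artery was ligated. This rat model lowers blood flow to the brain without ischaemia, and the series title places it in the study of early arterial remodelling in the brain (arteriogenesis, the growth of existing arteries). The 5 groups of 3 arrays were intact control rats, sham surgery after 24 h, 3VO after 24 h, sham surgery after 3 d and 3VO after 3 d. Sham rats had the vessels exposed without occlusion, and operated rats of both kinds received isoflurane and buprenorphine. Vessels were filled with latex under papaverine before dissection, and RNA of 8 rats was pooled for each array. The labels speak of repeated hybridisation of pooled RNA, so p-values measure the spread between these arrays, which may be partly technical. The title and source name of 1 array, sham replicate 1 at 3 d, give sham surgery, whereas its treatment text describes the occlusion. It was used as sham. For the listed genes, 3VO-minus-sham differences at 3 d that turn direction or move by over 1.5 times without it are given both ways. Genes outside the list are given with all arrays only.

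Values are GCOS signals, a linear brightness for each probe set. Their trimmed mean was 5000 on every array, their medians lay between 2559.4 and 2940.9, and 1.33% to 5.19% of probe sets per array read below 100, with none at 0. All 9 smooth muscle markers were measured, with summed signals of 230856 to 518428. Choroid plexus markers stood apart on intact replicate 2 and sham replicate 3 at 3 d, whose mean over 8 markers lay 4.01 and 3.99 above the median array on the log2 scale. Bulk RNA cannot tell fewer cells of a type from less RNA per cell. Signals of different probe sets are not comparable, so a probe set's signal is set against itself across arrays. Summed signals of marker genes are likewise compared across arrays only, and the brightest probe sets weigh most in them. Differences are taken between group means on the log2(signal + 16) scale, and their standard errors (SE) come from limma fitted to all 15 arrays. A difference is called past the threshold when the Benjamini-Hochberg adjusted p over 15737 probe sets is below 0.05.

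Endothelial cells line every vessel and hold together through junction proteins such as Pecam1. Vascular endothelial growth factor (VEGF) signals through Kdr, while Flt1 binds the same ligands with high affinity and is widely described as limiting Kdr signalling. Angiopoietins act on Tek, with Tie1 as its partner receptor and Angpt2 as the ligand stored and released by activated endothelium. During sprouting a leading tip cell extends towards VEGF and strongly expresses Esm1. Pecam1, Vwf, Eng and Tie1 serve here as identity genes of endothelium at large, not as marks of quiescent cells.

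At 24 h after occlusion Esm1 read above and Tie1 below its sham arrays, so their promoters are shown. Each run is the 250 bases before the gene's start in RefSeq's GRCr8 assembly, 5′ to 3′ on the gene's strand. Esm1 lies on the plus strand at chr2:46609003-46609252 and Tie1 on the minus strand at chr5:137304982-137305231. Capitals mark GGAA or its reverse complement TTCC, the core letters read by ETS-family transcription factors.
Esm1: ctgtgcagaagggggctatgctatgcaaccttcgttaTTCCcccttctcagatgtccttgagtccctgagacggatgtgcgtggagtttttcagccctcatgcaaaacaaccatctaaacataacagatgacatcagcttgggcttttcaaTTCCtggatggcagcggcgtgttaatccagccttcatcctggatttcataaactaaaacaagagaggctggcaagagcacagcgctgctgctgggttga
Tie1: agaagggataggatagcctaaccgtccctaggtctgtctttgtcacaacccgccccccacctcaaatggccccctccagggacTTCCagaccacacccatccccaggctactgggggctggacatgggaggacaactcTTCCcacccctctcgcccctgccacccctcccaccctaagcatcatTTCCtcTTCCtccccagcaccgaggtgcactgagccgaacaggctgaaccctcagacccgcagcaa
The Esm1 window held 2 such cores and the Tie1 window 4. Of the listed genes, 5 (Eng, Tie1, Kdr, Flt1 and Esm1) were in the promoter table, and Kdr held 4 cores, Eng 3 and Flt1 3. The same letters occurred in 93.2% of 33469 rat promoters of this length, with a median of 3, so their presence does not set these genes apart. The letters GATA, counted on both strands, occurred 2 times in the Tie1 window, once in that of Kdr and in none of the other windows (55.9% of all promoters held a match).

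Esm1, a proteoglycan secreted by endothelium and a standard tip cell marker, spanned the widest range of the 10 probe sets. Its lowest and highest arrays differed 8.06-fold. Intact arteries gave Esm1 signals of 1057, 1182 and 1721. After sham surgery Esm1 read 1515, 1397 and 1783 at 24 h and 1276, 1767 and 2428 at 3 d. After 3VO it read 2210, 4089 and 2768 at 24 h and 2640, 7212 and 8516 at 3 d. At each time the lowest 3VO array lay above the highest sham array, and both 3VO groups lay above all intact arrays. Replicate 1 at 3 d after 3VO was far below its 2 companions and only just above the highest sham array. The titles give that replicate a lower array number than its 2 companions.

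Group means of the Esm1 signal were 1320 ± 353 in intact arteries, 1565 ± 198 and 1823 ± 578 after sham surgery at 24 h and 3 d, and 3022 ± 965 and 6122 ± 3086 after 3VO (SD, n = 3 each). Neighbouring groups in that order overlapped, including sham at 3 d with 3VO at 24 h and the 3VO groups with each other. On the log2 scale the 3VO-minus-sham difference in Esm1 was 0.90 (SE 0.39) at 24 h and 1.62 (SE 0.39) at 3 d, which are 1.87-fold and 3.08-fold. Neither passed the threshold (limma adjusted p = 0.672 and 0.703), although at 3 d Esm1 ranked 17 of 15737 by p. The 95% interval of the 3 d difference ran from 0.79 to 2.45. The effect at 3 d exceeded that at 24 h by 0.72 (interval -0.46 to 1.89), with an adjusted p of 0.999 in limma. With the array number of the titles as a covariate this excess was 0.31. Without sham replicate 1 at 3 d the Esm1 difference was 1.39 (limma adjusted p = 0.622), and with the 2 choroid-rich arrays left out it was 1.85 (0.731).

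**Figure D1:**
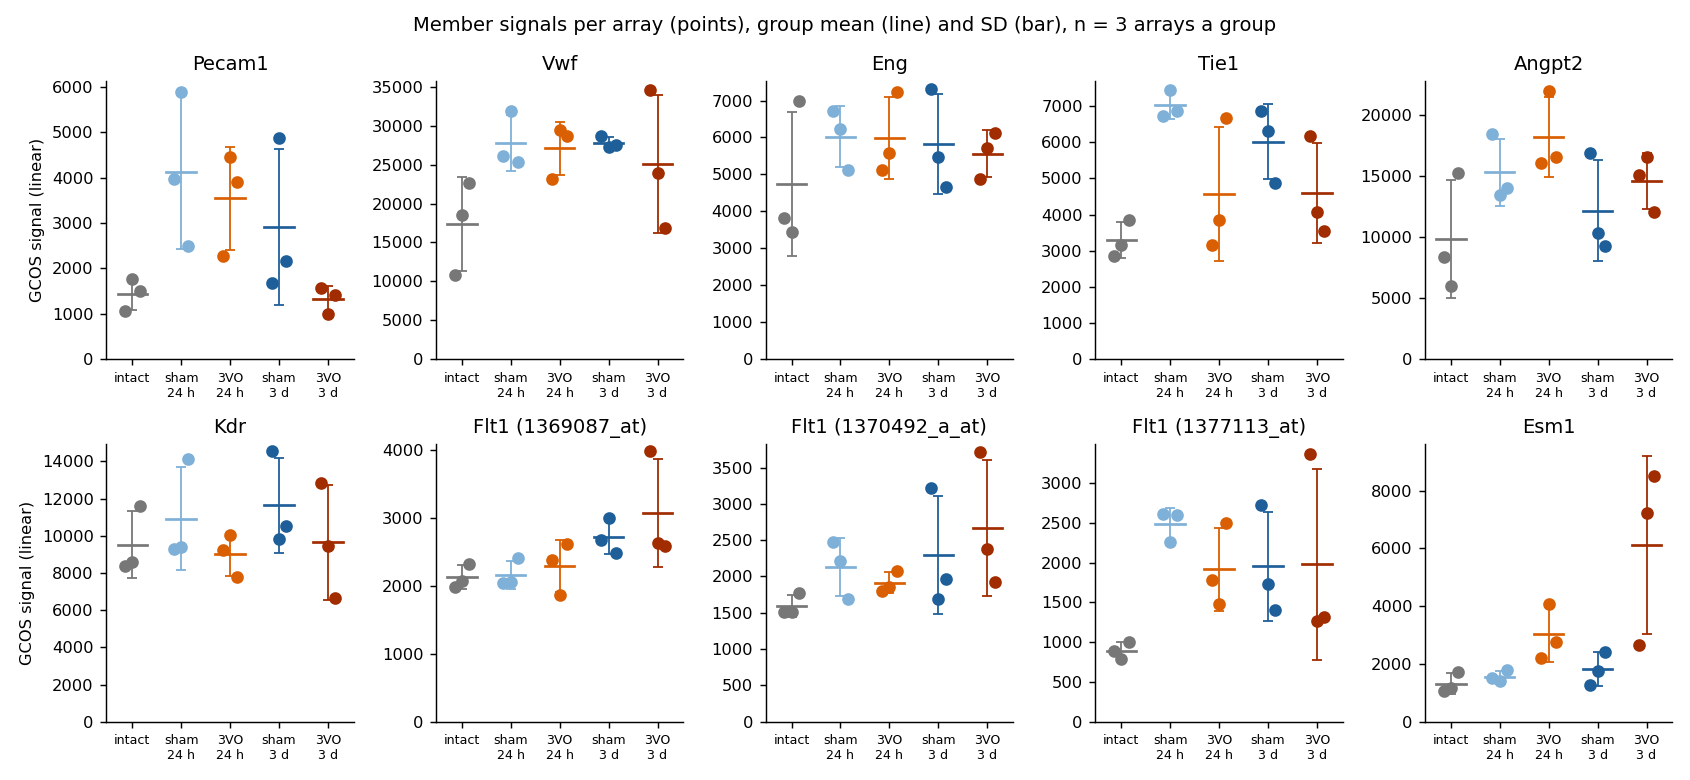
Signal of each of the 10 probe sets (linear GCOS scale from 0) on each of 15 arrays; points are arrays, horizontal lines group means and bars the SD of 3 arrays. Esm1 lies highest after 3VO at 3 d, at 2640 to 8516, while Pecam1 is at 999 to 1565 in that group and Eng overlaps between all 5 groups.

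Macrophage markers were higher on the same arrays. All 6 measured macrophage markers were higher after 3VO than after sham surgery at both times, with none past the threshold. Their summed signal was 105412 to 161157 after 3VO against 60256 to 91617 after sham at 24 h, and 88865 to 117962 against 59636 to 61121 at 3 d. Against intact arteries all 6 were higher after 3VO at 24 h and 3 d (medians 0.93 and 0.78), with 2 and 1 past the threshold. Over all probe sets 0.184% and 0.222% passed. After sham surgery 6 and 5 of the 6 were higher than intact, with none past it. The part of macrophage RNA in the Esm1 differences was not tested.

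Over all 10 probe sets, none passed the threshold for 3VO against sham. At 24 h limma called 8 of 15737 probe sets (0.0508%), and at 3 d 0 (0%), with 1097 and 745 at an unadjusted p under 0.05. Among the listed genes' probe sets, 2 were under 0.05 at each time, Esm1 and Tie1 at 24 h and Esm1 and Pecam1 at 3 d. At 24 h 3 of the 10 were higher and 7 lower, with a median log2 difference of -0.09 against -0.02 over all probe sets. At 3 d 4 were higher and 6 lower, with a median of -0.06 against -0.01. The balance at 3 d rested on single arrays, since 6 were higher and 4 lower without sham replicate 1 (median 0.13) and likewise without 3VO replicate 3 (median 0.09). So did that at 24 h, with 6 higher and 4 lower without sham replicate 2 (median 0.02) or without 3VO replicate 1 (median 0.05). Groups did not overlap for 2 of the 10 at 24 h (Esm1 higher, Tie1 lower) and for 2 at 3 d (Esm1 higher, Pecam1 lower). In either direction that held for 15.4% of all probe sets at 24 h and 9.09% at 3 d, against which 2 of 10 is a small count. For the difference between the effects at 3 d and 24 h, limma called 0% of all probe sets (438 at an unadjusted p under 0.05), and none of these 10 was under 0.05.

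**Figure D2:**
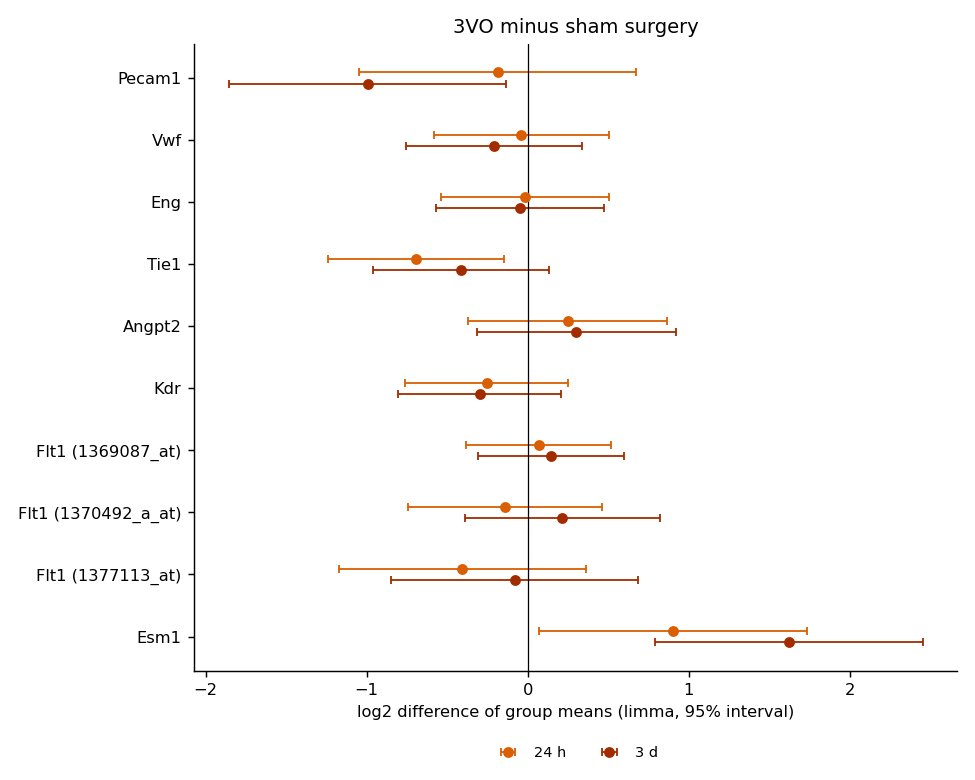
Log2 difference of group means, 3VO minus sham surgery (x axis), for each probe set (y axis); points are limma estimates and bars their 95% intervals, at 24 h and at 3 d. The Esm1 intervals lie above 0 at both times, those of Tie1 at 24 h and Pecam1 at 3 d lie below 0, and no probe set passed the threshold after adjustment.

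Esm1 was next set against the endothelial identity genes on the same array. The reference was the mean of log2(signal + 16) over Pecam1, Vwf, Eng and Tie1, and only changes of the difference between groups carry meaning. Esm1 minus this mean was -1.65, -1.87 and -1.67 in intact arteries. It was -2.44, -2.78 and -1.94 after sham surgery at 24 h and -2.45, -2.21 and -1.31 at 3 d. After 3VO it was -1.29, -0.83 and -1.62 at 24 h and -1.26, 0.57 and 0.84 at 3 d. Thus 3VO arrays lay above sham arrays at both times, at 3 d by a narrow margin on 1 array of each group.

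Relative to the identity genes, Esm1 was 2.20-fold higher after 3VO than after sham at 24 h and 4.10-fold higher at 3 d (differences of 1.14 and 2.04 on the log2 scale). Leaving out single arrays gave 0.93 to 1.36 at 24 h and 1.64 to 2.69 at 3 d. Without sham replicate 1 at 3 d the value was 1.81. Against intact arteries the relative level of Esm1 was 0.66 lower on the log2 scale after sham at 24 h, with no overlap, and 1.77 higher after 3VO at 3 d. The relative rise after 3VO joins a higher Esm1 signal to identity genes whose 3VO means on the log2 scale were not above those after sham. These values rest on genes chosen with earlier results known and carry no test.

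Not every identity gene gave the same picture. At 24 h, Esm1 minus Vwf, minus Eng and minus Tie1 separated 3VO from sham, with differences of 0.94, 0.92 and 1.60, while Esm1 minus Pecam1 overlapped at 1.09. At 3 d the separation held against Pecam1 (2.62) and Eng (1.67). Against Vwf (1.83) and Tie1 (2.03) replicate 1 after 3VO lay among the sham arrays. The identity genes were themselves not constant, as their highest and lowest arrays differed 5.89-fold for Pecam1, 3.19-fold for Vwf, 2.60-fold for Tie1 and 2.12-fold for Eng.

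**Figure D3:**
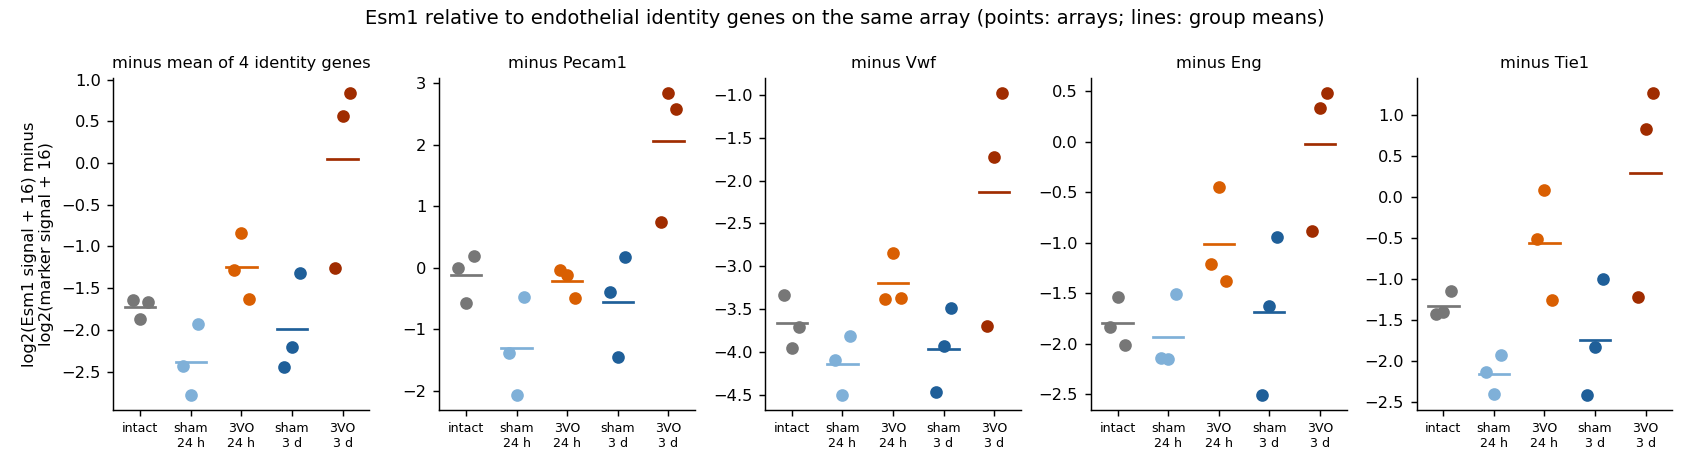
Esm1 minus the mean of 4 identity genes, and minus each of them, as a difference of log2(signal + 16) on the same array (y axes differ in range); points are arrays and lines group means. After 3VO at 3 d 2 arrays lie at 0.57 and 0.84 against the mean of 4 genes, and the third, at -1.26, lies close to the highest sham array at -1.31.

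Pecam1, the adhesion molecule of endothelial junctions that is also carried by platelets and leukocytes, was the most variable identity gene. Intact arteries gave 1055, 1759 and 1506. Sham surgery gave 3973, 5885 and 2492 at 24 h and 1684, 4876 and 2154 at 3 d. After 3VO the Pecam1 signal was 2278, 4457 and 3896 at 24 h, within the sham range apart from replicate 1, and 1565, 999 and 1407 at 3 d. At 3 d all 3VO arrays lay below all sham arrays and within or below the intact range. The 3VO-minus-sham difference was -0.99 (SE 0.40) at 3 d and -0.19 at 24 h, with limma adjusted p = 0.999 and 0.962. The 3 d value depended on single sham arrays, at -1.31 without sham replicate 1 and -0.54 without sham replicate 2. The 24 h value of Pecam1 turned to 0.11 without sham replicate 2.

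Vwf, the clotting factor that endothelium stores together with Angpt2, read 10824, 18580 and 22645 in intact arteries. It was 26124, 31960 and 25337 after sham and 23144, 29395 and 28693 after 3VO at 24 h. At 3 d Vwf was 28628, 27281 and 27482 after sham, and 34564, 23864 and 16836 after 3VO. The coefficient of variation was 2.61% for the 3 sham arrays at 3 d and 35.6% for the 3VO arrays at 3 d. The 3VO-minus-sham difference was -0.04 at 24 h and -0.21 at 3 d (SE 0.25 each). The Vwf value at 3 d was -0.47 without 3VO replicate 1 and 0.05 without 3VO replicate 3, and that at 24 h turned to 0.07 without 3VO replicate 1.

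Eng, an accessory receptor for ligands of the TGF-beta family, varied least of the identity genes. Its signals were 3807, 3448 and 6976 in intact arteries, 6720, 6233 and 5110 after sham and 5133, 5591 and 7230 after 3VO at 24 h. At 3 d Eng read 7304, 5476 and 4670 after sham and 4871, 5702 and 6114 after 3VO. Every pair of groups overlapped. The 3VO-minus-sham differences were -0.01 at 24 h and -0.05 at 3 d, with 95% intervals of -0.54 to 0.51 and -0.57 to 0.48. The 3 d value turned to 0.13 without sham replicate 1, and that of Eng at 24 h to 0.09 without 3VO replicate 1.

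Tie1, the orphan receptor that partners Tek, was low in intact arteries at 2863, 3163 and 3835. After sham surgery it was 6738, 7458 and 6862 at 24 h and 6868, 6313 and 4861 at 3 d. After 3VO Tie1 read 3155, 3858 and 6660 at 24 h and 6178, 4067 and 3540 at 3 d. At 24 h 2 of the 3 3VO arrays were at the intact level, and the third lay just below the lowest sham array. The 3VO-minus-sham difference was -0.69 (SE 0.26) at 24 h, or 1.62-fold lower, and -0.41 at 3 d, with limma adjusted p = 0.605 and 0.999. Leaving out single arrays gave Tie1 levels 1.38-fold (without 3VO replicate 1) to 2.01-fold lower (without 3VO replicate 3) at 24 h. At 3 d the log2 difference was -0.65 to -0.25, with -0.31 without sham replicate 1.

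Angpt2, the angiopoietin that destabilises vessels in sprouting, read 8318, 5982 and 15270 in intact arteries. At 24 h it was 18404, 13450 and 13996 after sham and 16039, 21923 and 16512 after 3VO. At 3 d Angpt2 was 16863, 10296 and 9265 after sham and 15086, 16584 and 12080 after 3VO. The 3VO groups had the higher mean at both times, by 0.25 and 0.30 on the log2 scale (SE 0.29 each), and the groups overlapped at both times. Without sham replicate 1, the highest sham array at 3 d, the Angpt2 difference at 3 d was 0.57 (limma adjusted p = 0.861). The groups then no longer overlapped, which fewer arrays make easier to reach. The share of all probe sets without overlap in that setting is not given here. Without sham replicate 3 it was 0.13.

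Kdr, the main signalling receptor for VEGF, stayed within 2.19-fold over all 15 arrays. It read 8374, 8603 and 11604 in intact arteries, 9271, 9372 and 14110 after sham and 9213, 10067 and 7777 after 3VO at 24 h. At 3 d Kdr was 14550, 9831 and 10521 after sham and 12846, 9460 and 6647 after 3VO. All groups overlapped, and the 3VO-minus-sham differences were -0.25 and -0.30 (SE 0.24 each). The 95% intervals, -0.76 to 0.25 and -0.81 to 0.21, include 0. The Kdr difference at 3 d was -0.13 without sham replicate 1, -0.53 without 3VO replicate 1 and -0.06 without 3VO replicate 3.

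Flt1, the VEGF receptor also made as a soluble form, had 3 probe sets that disagreed. On 1369087_at, signals were 1978, 2075 and 2326 in intact arteries, 2042, 2049 and 2402 after sham and 2372, 1867 and 2616 after 3VO at 24 h, and 2669, 2997 and 2488 after sham and 3983, 2627 and 2584 after 3VO at 3 d. With the groups in the same order, 1370492_a_at gave 1508, 1505 and 1768, then 2475, 2218 and 1695 and 1801, 1857 and 2078 at 24 h, and 3223, 1694 and 1972 and 3714, 2372 and 1919 at 3 d. On 1377113_at the values were 893, 786 and 1004, then 2615, 2258 and 2594 and 1778, 1478 and 2496 at 24 h, and 2722, 1728 and 1410 and 3367, 1264 and 1314 at 3 d. The highest array of all 3 Flt1 probe sets was 3VO replicate 1 at 3 d, the array with the lowest Esm1 of its group.

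After 3VO the Flt1 probe sets differed from sham by 0.07, -0.14 and -0.40 at 24 h and 0.15, 0.22 and -0.08 at 3 d on the log2 scale, in the order given, with SE of 0.21, 0.28 and 0.36. The 3VO and sham groups overlapped at both times. At 3 d the direction rested on single arrays, since without sham replicate 1 the Flt1 values were 0.14, 0.49 and 0.18, and without 3VO replicate 1 they were -0.06, -0.05 and -0.54. Against intact arteries the probe sets diverged at 24 h after sham surgery, by 0.02, 0.40 and 1.46. The files do not say which transcript form each Flt1 probe set reads.

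The operated groups were next compared with intact arteries, a set of comparisons that share the 3 intact arrays. All 10 probe sets had higher means after sham surgery than in intact arteries, at 24 h and at 3 d, with medians of 0.57 and 0.46 against 0.04 and 0.08 over all probe sets. For sham at 24 h 8 were higher and 2 lower without sham replicate 3 of that time, and 9 higher and 1 lower without intact replicate 1. After 3VO 9 of 10 were higher at 24 h (median 0.55 against 0.00) and 8 of 10 at 3 d (0.52 against 0.07). Only Kdr at both times and Pecam1 at 3 d were not higher. The 1 difference past the threshold was that of Esm1 after 3VO at 3 d, 2.07 (SE 0.39) or 4.19-fold, with limma adjusted p = 0.0459.

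Limma called 0% of probe sets for sham at 24 h and 0% for sham at 3 d, 0.184% for 3VO at 24 h and 0.222% for 3VO at 3 d. At an unadjusted p under 0.05 there were 2364 and 2236 probe sets for sham, of which 5 and 4 belonged to these genes. Every operated array lay above every intact array for 4 of the 10 after sham at each time, against 9.96% and 9.86% of all probe sets, for 6 after 3VO at 24 h (7.59%) and for 4 after 3VO at 3 d (10.3%). The Esm1 call was lost with those 2 choroid-rich arrays left out (2.00, limma adjusted p = 0.119) or without 3VO replicate 2 or 3 at 3 d (0.265 and 0.138), or intact replicate 1 or 2 (0.157 and 0.108). It was kept in 4 of the 15 fits that leave out a single array. Each of the 6 arrays at 24 h, which form no part of the contrast, ended the call when left out (0.0579 to 0.0741), as did sham replicate 2 at 3 d (0.0679).

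By gene, Pecam1 was 1.45 above intact after sham and 1.26 after 3VO at 24 h, 0.88 after sham at 3 d, and -0.11 after 3VO at 3 d (SE 0.40). Tie1 was 1.10 and 0.86 above intact after sham at 24 h and 3 d, and 0.41 and 0.45 after 3VO (SE 0.26). Vwf stood 0.74, 0.70, 0.74 and 0.54 above intact after sham at 24 h, 3VO at 24 h, sham at 3 d and 3VO at 3 d (SE 0.25). Esm1 gave 0.27 and 0.44 after sham against 1.17 and 2.07 after 3VO, the reverse of the order seen in Tie1. Angpt2 was 0.73 and 0.36 above intact after sham and 0.98 and 0.66 after 3VO (SE 0.29). These values did not pass the threshold, apart from Esm1 after 3VO at 3 d.

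The titles number the arrays, and the intact arrays hold the last numbers of the series. With array number as a covariate, Esm1 stood 1.20 and 1.34 above intact after sham at 24 h and 3 d, and 2.31 and 2.76 after 3VO, with the last of these past the threshold (limma adjusted p = 0.00785). Flt1 on 1377113_at fell from 1.06 to 0.35 above intact after 3VO at 24 h. In that fit 7 of the 10 probe sets were higher after sham at 24 h, 9 after sham at 3 d, 7 after 3VO at 24 h and 8 after 3VO at 3 d. Array order and the intact group cannot be told apart.

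Intact replicate 3 was the highest intact array for 9 of the 10 probe sets, all but that of Pecam1. Without it, 4 probe sets passed for sham at 24 h, which were Vwf (0.96, limma adjusted p = 0.0463), Tie1 (1.22, 0.0323), Angpt2 (1.10, 0.0283) and Flt1 on 1377113_at (1.55, 0.0429). Angpt2 also passed for 3VO at 24 h (1.35, 0.0199) without that array. Over all probe sets the calls rose as well, from 0 to 818 (5.20%) for sham and from 29 to 227 (1.44%) for 3VO at 24 h. Leaving out the highest intact array of a gene raises its difference from intact by construction. For sham at 24 h the median over the 10 probe sets was 0.57 with all arrays and 0.84 without intact replicate 3. It was 0.40 without intact replicate 1 and 0.39 without intact replicate 2. Vwf for sham at 24 h fell to 0.43 without intact replicate 1, and Angpt2 for sham at 3 d to 0.06 without intact replicate 2.

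**Figure D4:**
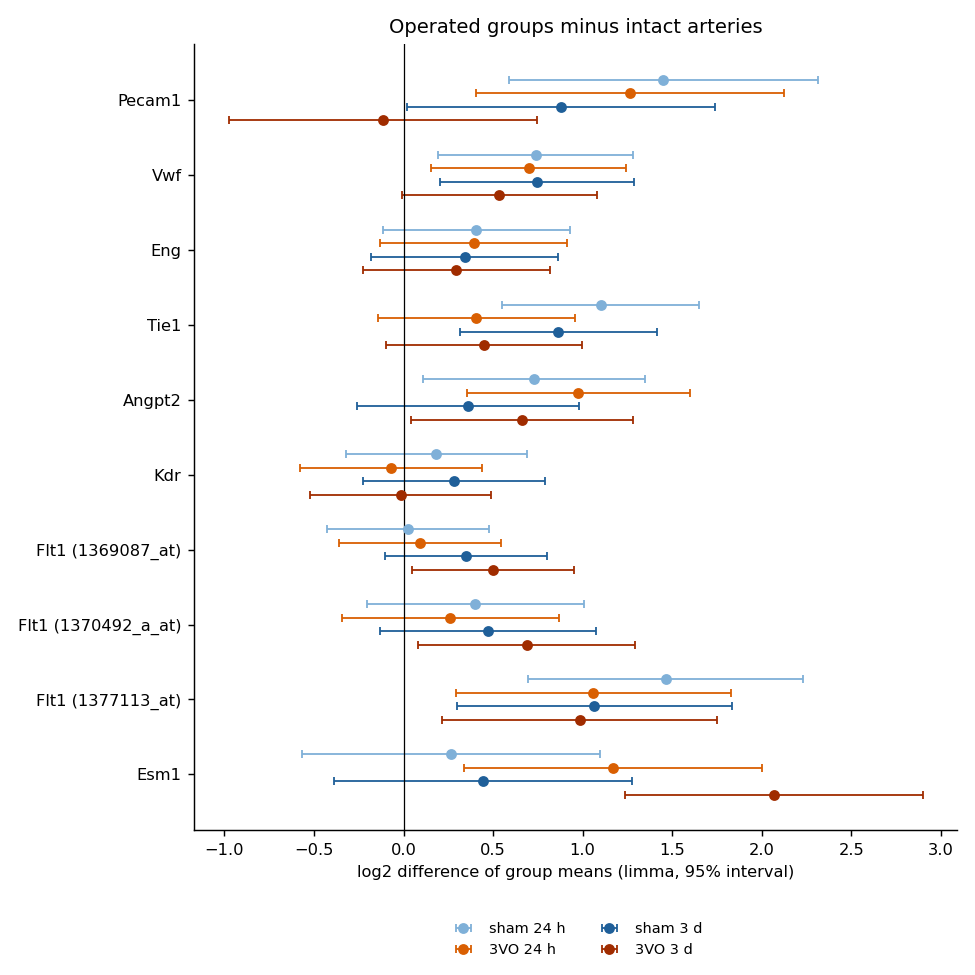
Log2 difference of group means from intact arteries (x axis) for each probe set (y axis) in the 4 operated groups; points are limma estimates and bars 95% intervals, and all 4 groups share the same 3 intact arrays. Esm1 after 3VO at 3 d, at 2.07, is the 1 point past the threshold; Pecam1 after 3VO at 3 d, at -0.11, lies near 0.

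Markers of other cells differed between intact and operated arteries as well. All 9 measured neuron markers were lower after sham surgery than in intact arteries at both times (medians -1.13 and -1.38), with summed signals of 81064 to 259892 in intact arteries against 38037 to 70554 and 57270 to 66344. After 3VO the neuron sums were 63223 to 133445 at 24 h and 40823 to 110187 at 3 d. All 9 smooth muscle markers were higher after sham than in intact arteries at both times, and all 9 lower after 3VO than after sham (medians -0.65 at 24 h and -0.41 at 3 d). The smooth muscle sums were 237688 to 446250 in intact arteries, 442034 to 518428 and 299428 to 500291 after sham, and 249735 to 356177 and 230856 to 382960 after 3VO.

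At 24 h all 9 neuron markers (median 1.19) and all 7 astrocyte markers (0.49) were higher after 3VO than after sham, with none past the threshold. All 7 astrocyte markers were lower after sham at 24 h than in intact arteries, and 6 of 7 at 3 d. All 5 measured oligodendrocyte markers were lower after sham at 24 h than in intact arteries (median -0.29), but all 5 were higher at 3 d (0.20). Against sham, 4 of the 5 were higher after 3VO at 24 h and all 5 lower at 3 d. The astrocyte sums were 295802 to 380147 in intact arteries, 167638 to 244583 after sham and 218654 to 350716 after 3VO at 24 h, and 210619 to 370630 and 197718 to 345452 at 3 d. All 3 measured erythroid markers were higher after sham than in intact arteries and lower after 3VO than after sham at both times. Their sums were 195193 to 312811 in intact arteries, 304584 to 358147 after sham and 238009 to 254527 after 3VO at 24 h, and 272732 to 368864 and 160262 to 245540 at 3 d. All 6 leptomeningeal markers were higher after sham than in intact arteries at both times. Their sums were 252188 to 393975 in intact arteries, 373356 to 480773 after sham and 319419 to 353299 after 3VO at 24 h, and 311255 to 500059 and 358789 to 474656 at 3 d.

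Platelets also carry Pecam1 and Vwf. The 4 measured platelet markers summed to 10652 to 13588 in intact arteries, 21050 to 24347 after sham and 11758 to 19779 after 3VO at 24 h, and 13074 to 33031 and 15930 to 35768 at 3 d. Most of each sum was 1 gene, Pf4, which read 7572, 8280 and 10727 in intact arteries and 21250, 20307 and 16512 after sham at 24 h. Of the 4 markers, 3 were higher and 1 lower after sham than in intact arteries at both times. All 8 choroid plexus markers were lower after sham than in intact arteries at both times, with sums of 42858 to 525356 in intact arteries, 41908 to 158041 after sham at 24 h and 35342 to 509337 at 3 d. The part of neuron, astrocyte, oligodendrocyte, smooth muscle, erythroid, leptomeningeal, platelet and choroid plexus RNA in the differences of the endothelial genes was not tested.

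The moderated F test over all 5 groups called 12 probe sets (0.0763%), with 1903 at an unadjusted p under 0.05. None of the 10 endothelial probe sets was among them, and the smallest adjusted p was that of Esm1, 0.131.

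Other endothelial genes were counted from a list of 33, of which 26 were measured. After 3VO 21 of 26 were lower than after sham at 24 h and 24 of 26 at 3 d, with medians of -0.22 and -0.17 against -0.02 and -0.01 over all probe sets, and none passed the threshold. Against intact arteries 23 were higher after sham at 24 h and 24 at 3 d (medians 0.64 and 0.52), and 23 and 24 after 3VO (0.41 and 0.36). Nos3, the endothelial nitric oxide synthase, had a higher mean after sham than in intact arteries and a lower mean after 3VO than after sham, at both times. It read 1041, 1549 and 2612 in intact arteries, 4819, 5327 and 4992 after sham and 1776, 3769 and 3928 after 3VO at 24 h. At 3 d Nos3 was 3075, 5093 and 3009 after sham and 4533, 1890 and 1068 after 3VO. The 3VO-minus-sham differences in Nos3 were -0.76 and -0.78 (SE 0.46), with limma adjusted p = 0.796 and 0.999. Erg, an ETS-family transcription factor that maintains endothelial identity, gave 4433, 4453 and 5099 after sham and 4988, 3061 and 2740 after 3VO at 3 d, a difference of -0.42. The 3VO and sham groups overlapped at 3 d for both Nos3 and Erg. At 24 h Mmrn2, Icam2 and Esam had a smaller limma p than Nos3, with 3VO-minus-sham differences of -0.58, -0.39 and -0.47.

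The wider VEGF and angiopoietin pathway held 29 genes, of which 23 were measured. After 3VO 9 were higher and 14 lower than after sham at each time, with medians of -0.09 and -0.04, and none passed the threshold. Of the 4 genes with the smallest p at each time, 1 was higher at 24 h and 3 at 3 d. Nid2, a basement membrane protein, read 6760, 9157 and 11140 after 3VO at 24 h against 17487, 11913 and 17410 after sham, with no overlap. Its difference of -0.80 (SE 0.22) had a limma adjusted p of 0.405. Plxnd1, a semaphorin receptor of vessels, read 3172, 3213 and 3038 after 3VO at 24 h against 4200, 4635 and 4727 after sham, a difference of -0.52. Igfbp3, a binding protein of insulin-like growth factors, read 3959, 6549 and 5910 against 5418, 3411 and 2520 after sham at 24 h, a difference of 0.57, and Ptprb, a phosphatase acting on Tek, differed by -0.41. Flt4, the receptor for Vegfc and Vegfd, was dim, at 484, 130 and 121 after 3VO at 3 d against 1396, 545 and 428 after sham, and the intact arrays were at 90 to 135. Its difference of -1.71 (SE 0.64) did not pass (limma adjusted p = 0.999). Vash1, a secreted inhibitor of angiogenesis, read 7524, 5398 and 6553 after 3VO at 3 d against 4650, 4195 and 5818 after sham, a difference of 0.41. Vegfd, a ligand of Flt4, read 905, 999 and 500 against 157, 540 and 585, a difference of 1.02. Its lowest sham value, 157, came from sham replicate 1, the array whose treatment text describes the occlusion. Plaur, the urokinase receptor, differed by 1.49 (SE 0.88), with 338, 305 and 2400 after 3VO against 140, 192 and 364. Like Nid2, Plxnd1 had no overlap between 3VO and sham at 24 h, which held for 15.4% of all probe sets in either direction. For the other genes named here the 3VO and sham groups overlapped at the time given.

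Vegfa, named as the ligand of Kdr and Flt1, read 2515, 2384 and 2160 after sham and 3937, 1899 and 3179 after 3VO at 24 h. At 3 d it was 3612, 2922 and 3121 after sham and 2865, 1899 and 2780 after 3VO. The Vegfa differences of 0.29 and -0.37 (SE 0.26) lay in opposite directions within the spread of the arrays.

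Of 5 genes of endothelial activation, Ccl2, a chemokine also made by smooth muscle and macrophages, was the 1 that passed in any comparison. It read 496, 286 and 502 in intact arteries, 1390, 709 and 571 after sham and 2208, 1837 and 1525 after 3VO at 24 h, and 1472, 807 and 244 after sham and 2190, 5877 and 8803 after 3VO at 3 d. As with Esm1, 3VO arrays lay above sham arrays at both times and replicate 1 was the lowest 3VO array at 3 d. Ccl2 passed only for 3VO at 3 d against intact (3.49, SE 0.60, limma adjusted p = 0.0321), not against sham at 3 d (2.83, adjusted p = 0.524). The leukocyte adhesion molecules Vcam1, Icam1, Selp and Sele did not pass in any of these comparisons.

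The genes most like Esm1 over the 15 arrays, by Pearson r of log2(signal + 16) among probe sets of 1 gene, were Tubb5 (0.892), Cks2 (0.879), Crispld2 (0.878), Kif22 (0.859) and Pclaf (0.852). Tubb5 is a tubulin, Cks2 binds cyclin-dependent kinases, Kif22 is a spindle kinesin, Pclaf binds the replication clamp PCNA, and Crispld2 is a secreted protein. Crispld2 read 15351, 21672 and 16399 after 3VO at 3 d against 9018, 12225 and 11315 after sham, and Cks2 read 2047, 3155 and 3317 against 1296, 701 and 1416. The other listed endothelial probe sets were not like Esm1, with r between -0.35 (Kdr) and 0.36 (Angpt2). The genes most like the mean of the identity genes were Gata2 (0.908), Nos3 (0.908), Acvrl1 (0.902), Cav1 (0.894) and Galm (0.877). Gata2 is a transcription factor of blood and endothelium, Acvrl1 a TGF-beta family receptor of endothelium, Cav1 the caveolae protein and Galm a sugar mutarotase. These correlations describe 15 arrays that share group membership and tissue composition.

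**Figure D5:**
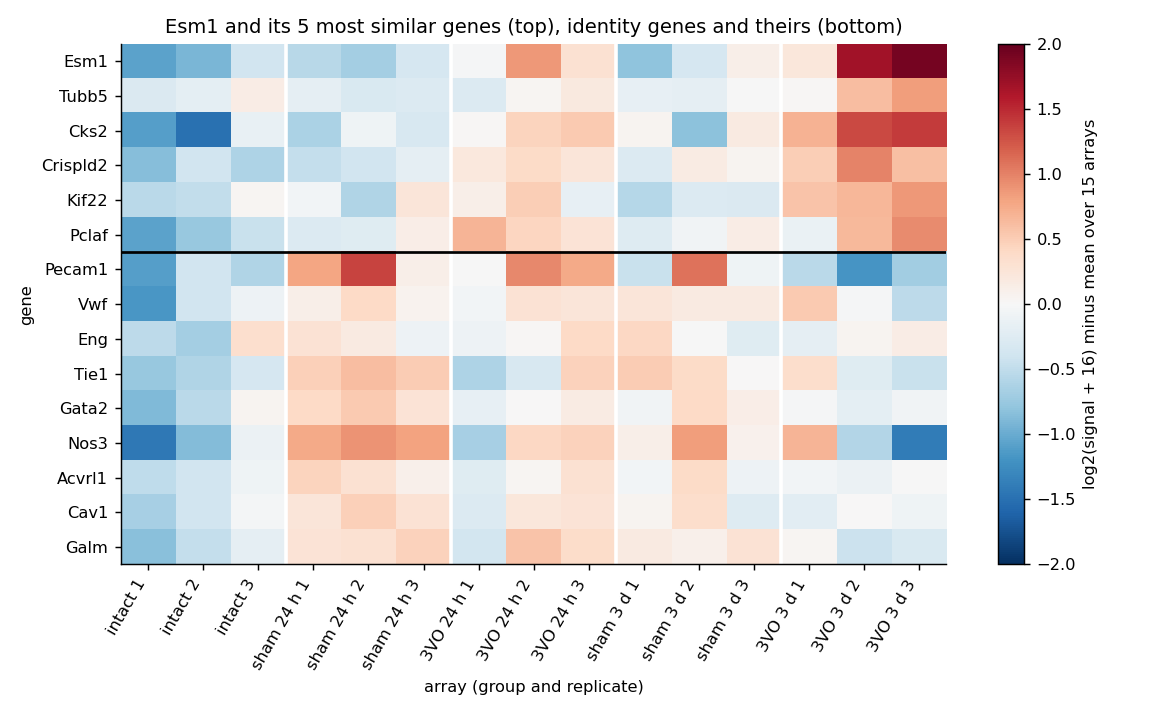
Log2(signal + 16) minus the gene's mean over 15 arrays (colour) for Esm1 with its 5 most similar genes, above the line, and for the 4 identity genes with theirs, below it; columns are arrays by group. Each upper gene reaches its highest value on 3VO replicate 2 or 3 at 3 d, and the lower genes are low on intact replicates 1 and 2 and mostly high after sham surgery at 24 h.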

How the data were processed

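Each array's deposited value is an intensity, a GCOS signal that the authors scaled to a global target, per the labels. The design text states a target of 500, whereas the trimmed mean (2% at each end) was 5000. The sources used here give no GCOS version. No rescaling was added before log2(signal + 16). Testing took in probe sets that reached a signal of 100 on 3 arrays or more, without the 57 controls, and all 10 listed probe sets passed. Symbols came from the platform table (1 gene for 12783 probe sets, several for 312, none for 2771). No pair of arrays held identical values, and arrays of a group correlated at 0.912 to 0.955.

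limma 3.58.1 in R 4.3.3 fitted 5 group means with eBayes and a variance trend (10 residual and 4.83 prior degrees of freedom), 2-sided, and was tested on simulated data. Precision is limited by having 3 arrays a group. Probe sets of a gene were kept apart, apart from the mean over identity genes.

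All listed genes were named with their values. From the pathway, endothelial and activation lists, up to 4 genes with the smallest p for 3VO against sham at either time could be named, and the 5 probe sets most correlated with Esm1 and with the identity mean. Vegfa was named for its role. Members, lists and tests were chosen with earlier results of these data known. The alternatives were other pseudocounts, signal minimums, normalizations, variance models and weights, the brightest probe set of each gene, the groups of a contrast alone, a covariate for array number, and arrays left out.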

Additional observations from a re-analysis of the deposited data

How the results depend on the processing

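The 3VO differences of Esm1 kept their sign in all 29 alternatives, at 3 d between 1.30 and 2.14, and none passed. The Esm1 call against intact at 3 d held in 12 of 29, with log2 differences of 1.75 to 2.76 and adjusted p of 0.00777 to 0.415. It was lost, with 0 of the 10 probe sets past the threshold, under quantile normalization (adjusted p = 0.0692), median centring (0.086), no variance trend (0.0962), without the 2 arrays richest in choroid plexus markers (0.119, chosen after seeing the data) and in the groups alone (0.415). Leaving out single arrays gave 0 to 1 of the 10 there, 0 to 4 for sham at 24 h against intact and 0 to 1 for 3VO at 24 h against intact. Leaving out the 5 arrays over 1 above the median in choroid plexus markers left 1 intact array, assumed to vary like the others. In that fit the Esm1 call was lost too, and Vwf stood 1.41 above intact after 3VO at 3 d. In the F test 1 of the 10, Esm1, passed once array number was a covariate, and 0 to 1 with single arrays left out.

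Counts over all probe sets moved more. For 3VO against sham at 24 h (8) they were 2 without the trend, 25 with array weights, 2 without the 5 choroid-rich arrays, 22 in the groups alone and 1 to 13 without single arrays. At 3 d (0) they were 1 with the array number, 1 in the groups alone and 0 to 1 without single arrays. For sham at 24 h against intact (0) they were 49 without the 5 arrays, 1 without the 2, 2 in the groups alone and 0 to 818 without single arrays, and for sham at 3 d (0) 31, 1 and, without single arrays, 0 to 184. For 3VO at 24 h against intact (29) they were 15 with median centring, 8 without the trend, 1 with the array number, 60 without the 5 arrays, 9 without the 2, 4 in the groups alone and 7 to 227. For 3VO at 3 d against intact (35) they were 2, 4, 3, 99, 7 and 0 in the same order, 22 with 1 probe set per gene, and 0 to 258. The F test (12) gave 4 without the trend, 26 with array weights and 7 to 107. The cause was not tested.

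Of the 10 probe sets, those whose groups did not overlap became 2 in place of 1 for lower after 3VO at 3 d without the 2 arrays and for higher at 3 d without sham replicate 1, 3 in place of 6 for higher after 3VO at 24 h against intact with median centring, and 2 in place of 4 after 3VO at 3 d with quantile normalization. The shares over all probe sets in these settings are not given here, and fewer arrays make groups without overlap more likely. These counts are therefore not read as results about the listed genes. No paired analysis was possible because the labels give each array its own number and no replicate number is shared between groups. Depth has no meaning for arrays, and 3 arrays a group limit every value.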
